A study of Drosophila melanogaster with 36 samples.

Results

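The 7 genes described here, smg, nos, pum, brat, cup, tral and me31B, encode proteins that mothers load into the egg, as RNA or protein, to hold other maternal mRNAs silent. They were taken by symbol from a list drawn up with earlier results of these data known, with no threshold on a value, and all 7 were found among the 10226 gene IDs of the deposited tables, at each of the 3 times. Their mRNAs were followed by RNA sequencing of sucrose gradient pools from Drosophila melanogaster embryos. One genotype was orb2-delta-zz, which lacks the ZZ domain, a zinc-binding fold, of the CPEB-type mRNA regulator ORB2, and the other was wild type, the w1118 stock used before injection. Embryos of both were 0-1h, 1-2h or 2-3h old, counted from laying, and many embryos were crushed together for each extract, in a buffer with cycloheximide, which holds ribosomes on mRNA. Each extract was run on a 15 to 45% sucrose gradient, and pools 3 and 1 of each of the 18 gradients were sequenced. This gave 36 libraries in 12 groups of 3. No label tells where in the gradient a pool lies, whether the mothers also carried the deletion, or whether replicates came from separate cultures of flies. The p-values below therefore measure only the spread between these libraries, which may be technical.

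In the early Drosophila embryo, transcription has hardly begun, and gene expression is controlled by deciding which maternal mRNAs are translated and when they are destroyed. Smaug (smg) binds a short hairpin in its targets and recruits the CCR4-NOT deadenylase, which shortens poly(A) tails, while Nanos (nos), Pumilio (pum) and Brain tumor (brat) act together on hunchback mRNA at the posterior pole. Cup (cup) binds the cap-binding protein eIF4E and keeps initiation factors away from it, and Trailer hitch (tral) and the RNA helicase Me31B (me31B) coat repressed mRNAs in the same particle. The Pan gu (PNG) kinase, switched on at egg activation, promotes translation of smg, and the CTLH ubiquitin ligase removes the Cup, Tral and Me31B proteins as the embryo's own genome takes over. These are background facts about the proteins, and the values below are mRNA levels.

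Library totals lay between 21558822 and 47287818 normalized counts, and 0 pairs of libraries held the same values. The number of genes listed was 7746 in the youngest, 8723 in the 1-2h and 10091 in the 2-3h embryos. The edited gene, orb2, had between 1.71 and 27.66 TPM in the orb2-delta-zz libraries and between 0.7005 and 32.54 TPM in the wild-type libraries, and gene-level values cannot show whether the ZZ-coding part was missing. In pool 3 it was lower in orb2-delta-zz at 0-1h (23.16 to 27.66 against 30.7 to 32.54 TPM), without overlap. So it was at 1-2h (24.52 to 27.24 against 28.03 to 31.22 TPM), though normalized counts overlapped. At 2-3h it was higher in pool 1 (1.713 to 4.015 against 0.7005 to 1.401 TPM), and elsewhere its libraries overlapped. Such separation on TPM was not counted over all genes. Also, orb2 overlaps CG43783 (up to 46.7 TPM) on its strand, which could split reads. The summed level of 22 early zygotic genes, which the embryo transcribes itself, was lower in orb2-delta-zz than in wild type at each time and in each pool, without overlap. In pool 3 that sum was 566.3 to 687.2 TPM in orb2-delta-zz against 1187 to 1708 TPM in wild type at 0-1h, over the 21 of the 22 genes listed there. At 1-2h it was 1919 to 2982 against 3969 to 5889 TPM, and at 2-3h 6068 to 8949 against 11207 to 15268 TPM. Of 15 egg shell and follicle cell markers, at most 2 were listed at any time, and their sum stayed under 1 TPM. Markers of much older embryos, mostly muscle and nerve genes, of which 4, 7 and 10 of 12 were listed at the 3 times, stood apart in 5 gradients. These were orb2-delta-zz replicate 1 at 0-1h (571.4 TPM in pool 3), orb2-delta-zz replicate 3 (284.5 TPM) and wild-type replicate 2 (620.5 TPM) at 1-2h, and replicate 2 of both genotypes at 2-3h (1027 TPM in orb2-delta-zz and 1150 TPM in wild type). Values without these 5 gradients are given below as an alternative chosen after seeing the data. Leaving them out did not even out these markers between the genotypes at 2-3h. The gradients kept at that age had 228.5 and 409.2 TPM in pool 3 of orb2-delta-zz, against 140.2 and 104.9 TPM in wild type.

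**Figure D1:**
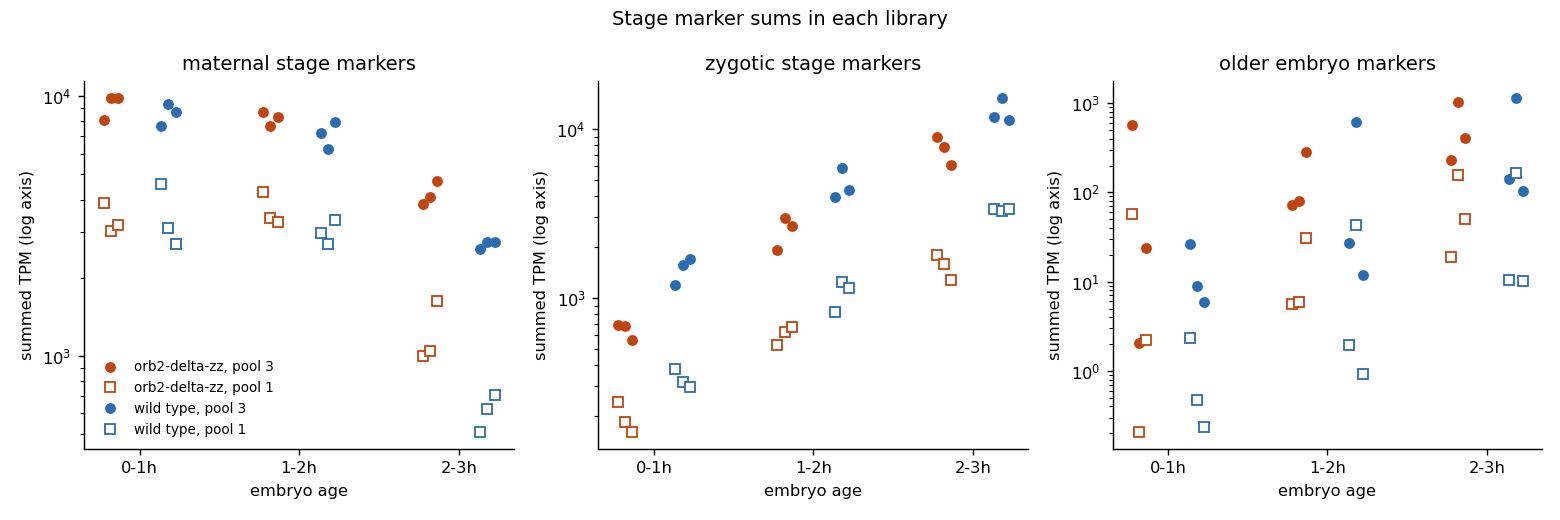
Summed TPM, on a log axis, of maternal stage markers, zygotic stage markers and older embryo markers in each of the 36 libraries, by embryo age, with orb2-delta-zz left of wild type (circles pool 3, squares pool 1). The zygotic sum of orb2-delta-zz lies below that of wild type in both pools at each time, and the maternal sum lies above it at 2-3h.

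By position in the BDGP6.54 annotation (Ensembl release 115), the 7 genes lie on 3 chromosome arms, smg at 3L:8990317-8997989 (minus strand), tral at 3L:12515059-12520954 (plus), nos at 3R:19157238-19160202 (plus) and pum at 3R:9066343-9237682 (minus). The others are brat at 2L:19133816-19179758, cup at 2L:6663664-6674780 and me31B at 2L:10239341-10242172, all on the plus strand. Their longest annotated transcripts run from 1699 nt for me31B to 12088 nt for brat, with 3′ untranslated parts from 124 nt for me31B to 8499 nt for brat. On the opposite strand nos overlaps CG11779 and Nsun5, brat overlaps CG17568, Polr1D and lncRNA:CR44977, and cup overlaps cort, and cup shares its strand with CG34310. The libraries were made with a stranded kit, but whether the counting used the strand was not given in the sources used here. At 0-1h these overlapping genes reached at most 79.2 TPM (CG11779). At 2-3h Nsun5 reached 60.8 TPM and CG34310 70.8 TPM, which is of the order of nos and cup there. In pool 1 brat averaged 33.58 TPM in orb2-delta-zz and 36.54 TPM in wild type at 0-1h, where CG17568 reached 66.3 TPM in some library. At 2-3h these means were 18.81 and 16.36 TPM, and Polr1D reached 36.1 TPM. For cup in pool 1 at 0-1h they were 75.26 and 103.3 TPM, and cort reached 62.3 TPM. The 2-3h values of nos and cup, and pool 1 values of brat and cup, are thus uncertain where the counting could have split reads.

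All 7 mRNAs were abundant in pool 3 of the youngest embryos, and their order there was much the same in both genotypes. TPM, which is scaled for transcript length and for the library total, was used to compare genes. In pool 3 at 0-1h, tral averaged 2314 ± 98.9 TPM in orb2-delta-zz and 2250 ± 87.4 TPM in wild type (SD, n = 3 each, here and in the other means). For me31B the means were 2226 ± 170.1 and 2032 ± 90.3 TPM, so tral and me31B stood at the top, and their libraries overlapped in orb2-delta-zz but not in wild type. Next came smg with 1248 ± 387 TPM in orb2-delta-zz and 1334 ± 380.4 TPM in wild type. Then nos, with 678.1 ± 57.5 and 658.2 ± 19.9 TPM, and cup, with 683.8 ± 1.70 and 608.4 ± 27.9 TPM, lay side by side, overlapping in orb2-delta-zz and with nos just above cup in wild type. Below them brat had 449.5 ± 35.6 TPM in orb2-delta-zz and 487.6 ± 59.2 TPM in wild type, and pum had 246.3 ± 2.95 and 248.9 ± 3.03 TPM. The libraries of smg, brat and pum did not reach those of their neighbours in this order. Within wild type, tral, me31B, smg, nos, cup and brat were each among the 4.05% of listed genes with the highest mean in that pool, and pum was among the top 9.88%.

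Pool 1 held the same mRNAs in another order. There me31B led, with 2208 ± 352 TPM in orb2-delta-zz and 2312 ± 582.1 TPM in wild type at 0-1h, followed by nos and tral, which overlapped. For nos the means were 556 ± 136.8 and 676.6 ± 242 TPM, and for tral they were 489.2 ± 180.5 and 621.6 ± 385.3 TPM. By contrast smg, one of the highest of the 7 in pool 3, had only 19.46 ± 4.04 TPM in orb2-delta-zz and 19.5 ± 4.00 TPM in wild type, and pum had 10.79 ± 3.21 and 19.55 ± 17.8 TPM. The spread of pum, brat, cup and tral in wild-type pool 1 at 0-1h came from replicate 1, which was the highest of the 3 libraries for each of them (39.69 TPM of pum against 13.02 and 5.944 TPM in the other libraries).

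**Figure D2:**
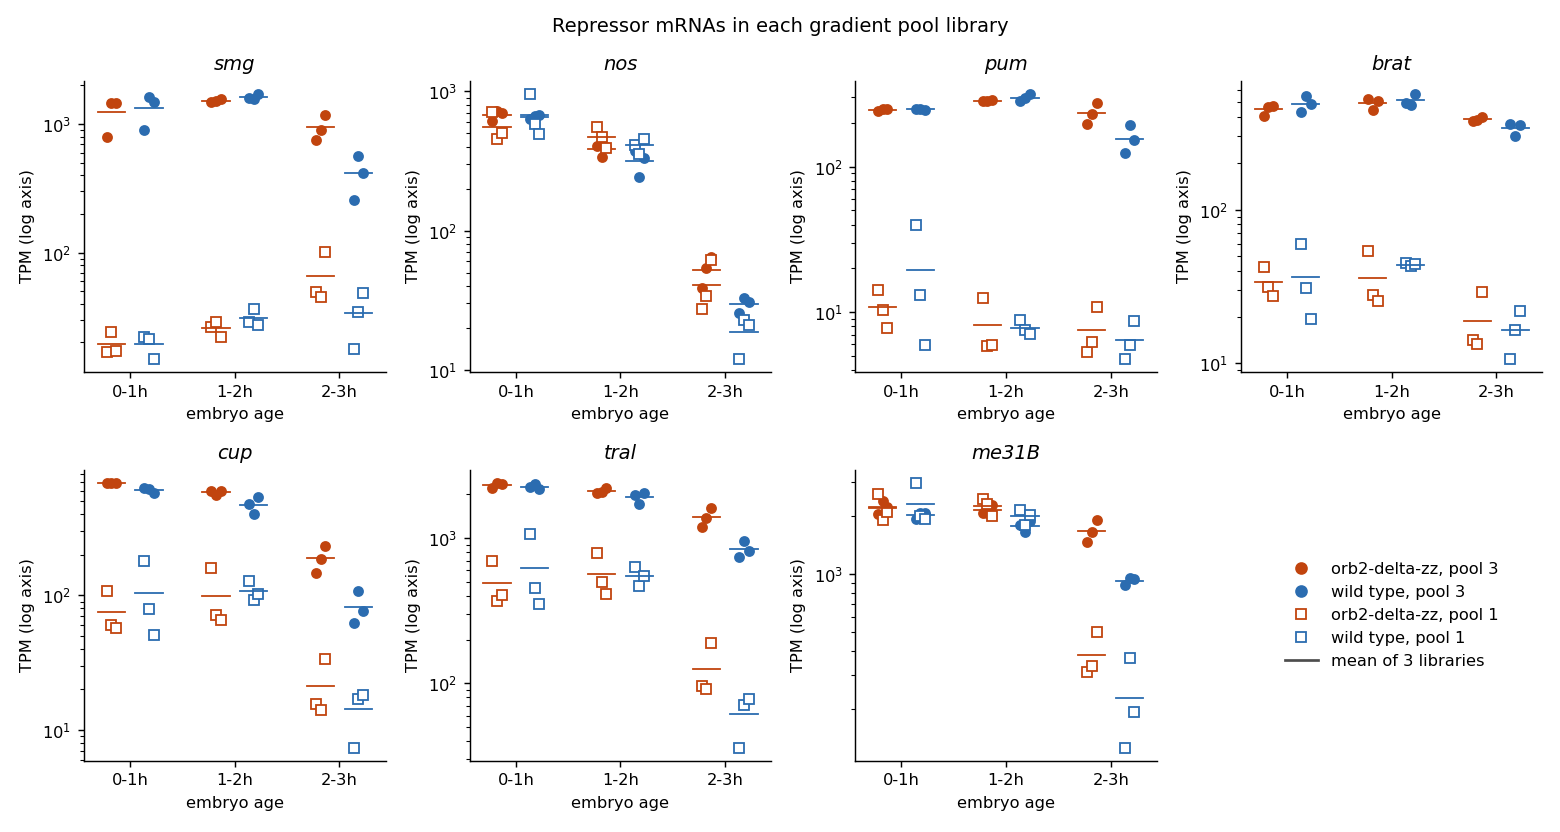
TPM of each of the 7 mRNAs, on a log axis, in each of the 36 libraries by embryo age, with orb2-delta-zz left of wild type (filled circles pool 3, open squares pool 1, bars the mean of 3 libraries). The pools lie far apart for smg, pum and brat at 0-1h and overlap for nos and me31B, and at 2-3h nos is the lowest of the 7 in pool 3.

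The question for each gradient was how an mRNA is shared between the pools. Here the ratio of pool 3 to pool 1 was taken within each gradient, on the normalized counts, and the ratios compare an mRNA with the median gene, since neither scale gives the amount of RNA in a pool. On normalized counts the median gene had a log2 difference of pool 3 minus pool 1 between -0.07 and 0.07, and on the TPM scale all genes shift up by 1.18 to 2.20. At 0-1h smg was 21.9, 19.5 and 28.9 times higher in pool 3 than in pool 1 in the 3 orb2-delta-zz gradients, and 22.7, 27.4 and 31.1 times in the 3 wild-type gradients. The ratios of pum were 7.92, 7.67 and 10.8 in orb2-delta-zz and 3.53, 7.0 and 12.9 in wild type. Those of brat were 4.49, 4.76 and 5.90 in orb2-delta-zz, against 4.05, 6.47 and 7.77 in wild type. Both genotypes thus had these 3 RNA-binding repressors on the pool 3 side in every gradient, and their ranges overlapped. With cup the ratios were 2.92, 3.66 and 4.04 in orb2-delta-zz and 1.95, 2.86 and 3.53 in wild type, and with tral 1.47, 2.09 and 1.97 against 1.18, 1.88 and 1.93. In contrast nos lay on the pool 1 side, with ratios of 0.400, 0.511 and 0.470 in orb2-delta-zz and 0.374, 0.414 and 0.425 in wild type. So did me31B, at 0.366, 0.399 and 0.360 against 0.361, 0.378 and 0.333.

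By limma across all 7533 genes tested at 0-1h, with Benjamini-Hochberg adjusted p under 0.05 as the call, 5 of the 7 were higher in pool 3 than in pool 1 and 2 were lower, in each genotype. That count is read against a background in which most genes differed, since 40.6% of all genes were called higher in pool 3 and 39.9% lower in orb2-delta-zz, and 39.8% higher and 40.6% lower in wild type. The log2 difference of smg was 4.53 ± 0.35 in orb2-delta-zz and 4.75 ± 0.35 in wild type (± SE, limma adjusted p = 2.5e-07 and 1.7e-07). At the other end, nos had -1.13 ± 0.10 and -1.31 ± 0.10 (limma adjusted p = 1.1e-06 and 3.1e-07), and me31B -1.42 ± 0.13 and -1.49 ± 0.13 (limma adjusted p = 1.1e-06 and 7.3e-07). On the TPM scale, nos turned to 0.31 in orb2-delta-zz and 0.02 in wild type, and me31B to 0.02 and -0.16, none of them called, while their distance to the median gene stayed between -0.99 and -1.35. The 5 others kept their direction and their call on both scales at 0-1h, but with upper-quartile scaling the wild-type call of tral was lost (0.27, limma adjusted p = 0.151).

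The smg ratio lay far lower at 2-3h than at the earlier ages. At 1-2h the ratios of smg were 18.9, 13.3 and 17.7 in orb2-delta-zz and 15.8, 10.7 and 20.4 in wild type. At 2-3h they were 2.52, 3.14 and 2.22 in orb2-delta-zz, against 2.40, 2.90 and 1.74 in wild type, so every gradient at 2-3h lay below every gradient at 0-1h and 1-2h, in both genotypes. For pum the range over gradients was 4.78 to 6.17 in orb2-delta-zz and 3.56 to 5.72 in wild type at 2-3h, and for brat it was 2.61 to 4.56 and 3.26 to 5.62. The ratios of different times rest on separately scaled tables, and the change of a ratio between times was not tested.

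For cup the ratio was 1.25 to 2.30 in orb2-delta-zz and 1.07 to 1.71 in wild type at 1-2h, and 1.30 to 2.11 against 0.837 to 1.40 at 2-3h. The tral ratio lay at 0.872 to 1.34 in orb2-delta-zz and 0.898 to 1.22 in wild type at 1-2h, and then at 1.60 to 2.41 against 2.14 to 3.41 at 2-3h. For me31B it was 0.228 to 0.283 against 0.230 to 0.304 at 1-2h, and 0.724 to 0.787 in orb2-delta-zz against 0.466 to 1.16 in wild type at 2-3h. At 0-1h and 1-2h me31B thus lay below the other mRNAs of its particle, cup and tral, in every gradient. The nos ratio was 0.183 to 0.255 and 0.169 to 0.258 at 1-2h. At 2-3h it was 0.201 to 0.250 in orb2-delta-zz against 0.257 to 0.358 in wild type, without overlap. The share of all genes with such a separation of ratios was not counted. The test of this genotype difference, described below, did not call nos (limma adjusted p = 0.735).

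Of the 7, limma called 4 higher in pool 3 (smg, pum, brat and cup) and 2 lower (nos and me31B) in orb2-delta-zz at 1-2h, against a background of 36.9% higher and 37.6% lower. In wild type at 1-2h it called 3 higher (smg, pum and brat) and the same 2 lower, against 37.0% in either direction. On the TPM scale the 1-2h calls of nos (-0.29 in orb2-delta-zz and -0.39 in wild type) and me31B (-0.07 and -0.16) were lost, and the orb2-delta-zz call of cup was lost without replicate 2 (limma adjusted p = 0.055) or replicate 3 (0.0563). At 2-3h 4 were higher in each genotype (smg, pum, brat and tral) and nos alone was lower, against 29.9% higher and 30.1% lower in orb2-delta-zz and 29.3% and 27.1% in wild type. With the gradient as a block, cup was also called in orb2-delta-zz at 2-3h (log2 difference 0.71, limma adjusted p = 0.00305, against 0.0804 without it). The call of smg in wild type at 2-3h rested on few gradients, since without those high in older embryo markers it was 1.03 with a limma adjusted p of 0.0813, against 1.20 ± 0.35 and 0.0102. With upper-quartile scaling that call was lost too (0.72, limma adjusted p = 0.0816), as was that of tral in orb2-delta-zz (0.56, 0.0544), while me31B was called lower in orb2-delta-zz (-0.83, 0.0222) and in wild type (-0.78, 0.0304).

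**Figure D3:**
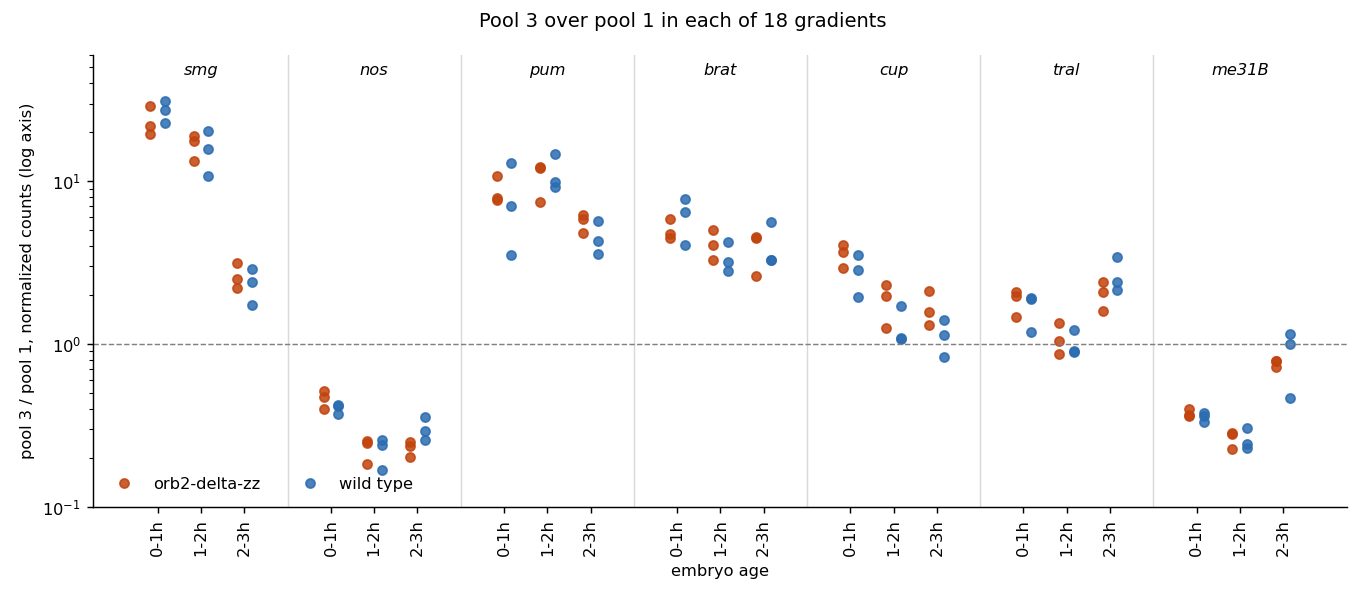
Ratio of pool 3 to pool 1 in normalized counts, on a log axis, for each of the 7 mRNAs in each of the 18 gradients, by embryo age, with orb2-delta-zz left of wild type. The smg ratio lies at 19.5 to 31.1 at 0-1h and at 1.74 to 3.14 at 2-3h, over both genotypes, and nos stays below 1 throughout.

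The pool 3 to pool 1 ratio was then compared between the genotypes, as the interaction of genotype and pool. None of the 7 was called at any time (0 of 7 in limma), against a background of 0.279% of genes higher and 0.239% lower at 0-1h, 0.133% and 0.350% at 1-2h, and 0.0523% and 0.0837% at 2-3h. Over all genes, 552, 484 and 1232 had an unadjusted p under 0.05 at the 3 times, and with the gradient as a block 510 genes in place of 13 were called at 2-3h, again with 0 of the 7. The interaction of cup was 0.38 ± 0.27 at 0-1h, 0.50 ± 0.34 at 1-2h and 0.57 ± 0.46 at 2-3h, and that of nos at 2-3h was -0.40 ± 0.36. None of these values passed the test (limma adjusted p from 0.691 to 1 for cup and 0.735 for nos).

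The main genotype comparison asked whether the level of each mRNA within a pool depended on the genotype. In these bulk libraries of many embryos, fewer embryos or cells with an mRNA and less of it in each cannot be told apart. At 0-1h and 1-2h none of the 7 was called in either pool (0 of 7 in limma in each comparison). Over all genes, 4.45% were called higher and 3.13% lower in pool 3 at 0-1h, and 5.62% and 4.42% in pool 1. At 1-2h these shares were 3.53% and 5.04% in pool 3, and 6.63% and 4.80% in pool 1. At an unadjusted p under 0.05, limma gave 1209 genes in pool 3 and 1593 in pool 1 for 0-1h embryos, and 1701 and 2240 for 1-2h embryos. The log2 differences of the 7, orb2-delta-zz minus wild type, lay between -0.10 and 0.19 in pool 3 and between -0.35 and 0.13 in pool 1 at 0-1h. At 1-2h they lay between -0.06 and 0.35 in pool 3 and between -0.30 and 0.28 in pool 1.

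A few of these early values did not overlap between genotypes. At 1-2h me31B had 55160, 54464 and 54576 normalized counts in pool 3 of orb2-delta-zz, against 46611, 37126 and 50847 in wild type. In pool 1 it had 195048, 239113 and 193622 in orb2-delta-zz, against 192695, 161744 and 167399 in wild type. In both pools all 3 orb2-delta-zz libraries were above all 3 wild-type libraries, and neither the log2 difference in pool 3 (0.30 ± 0.15) nor that in pool 1 (0.26 ± 0.15) passed the test (limma adjusted p = 0.275 and 0.272). The other cases were cup, higher in pool 3 at 0-1h, and nos, lower in pool 1 at 0-1h and higher there at 1-2h. The share of all genes with such separation was 17.0% higher in pool 3 and 10.6% lower in pool 1 at 0-1h, and 16.8% higher in pool 3 and 20.1% higher in pool 1 at 1-2h.

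At 2-3h all 7 log2 differences were above 0 in both pools. Their median was 0.70 in pool 3 and 0.86 in pool 1, where the median of all 9554 genes tested was 0.01 and -0.03 and the shares of all genes above 0 were 50.5% and 48.5%. In pool 3 limma called 2 of the 7 higher (smg and cup), where 9.71% of all genes were higher and 4.97% lower. In pool 1 it called 3 of the 7 higher (nos, tral and me31B), where 14.4% of all genes were higher and 9.48% lower. With upper-quartile scaling the all-gene split turned to 937 higher and 1272 lower in pool 3, against 928 and 475, and to 1243 and 1956 in pool 1, against 1374 and 906. In pool 3 the 3 orb2-delta-zz libraries lay above the 3 wild-type libraries for 6 of the 7, all but brat, and 21.7% of all genes did so. In pool 1 this held for 2 of the 7, nos and tral, and for 20.3% of all genes.

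Among the mRNAs of the RNA-binding repressors, smg had 48364, 49425 and 73730 normalized counts in pool 3 of orb2-delta-zz, against 17327, 31833 and 28779 in wild type. Every orb2-delta-zz library was above every wild-type library, with replicate 3 of orb2-delta-zz the highest and replicate 1 of wild type the lowest. The mean was 2.23-fold higher on the log2 scale of the fit (log2 difference 1.16 ± 0.35, limma adjusted p = 0.0435). In pool 1 smg had 19191, 15726 and 33277 in orb2-delta-zz and 7213, 10981 and 16522 in wild type, ranges that overlapped at 1 library of each genotype, and 0.98 ± 0.35 did not pass the test (limma adjusted p = 0.058). In that pool and age, libraries of the same replicate number deviated together across genotypes (r of 0.62, 0.63 and 0.22). With the replicate number as a block smg was called (0.98, limma adjusted p = 0.0042), and orb2-delta-zz was the higher in all 3 pairs.

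For nos, whose own mRNA Smaug represses outside the posterior pole, pool 3 held 1129, 1332 and 1817 normalized counts in orb2-delta-zz and 783.6, 843.1 and 954.3 in wild type. The groups did not overlap, but 0.70 ± 0.26 did not pass the test (limma adjusted p = 0.0826). In pool 1, where its normalized counts were higher, it had 4795, 5324 and 9054 in orb2-delta-zz, against 2192, 3284 and 3246 in wild type. These did not overlap either, and the log2 difference was 1.10 ± 0.26 (2.15-fold, limma adjusted p = 0.0113).

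Without a block, the mRNAs of the partners of Nanos were not called. Pool 3 held 17397, 17296 and 23352 normalized counts of pum in orb2-delta-zz, against 11373, 14873 and 14316 in wild type, without overlap but not called (0.51 ± 0.24, limma adjusted p = 0.161). With the replicate number as a block, pum was called there (0.51, limma adjusted p = 0.0176). So were nos (limma adjusted p = 0.00609), tral (0.0186) and me31B (0.0294) in pool 3. In that pool and age, replicate 3 was not related across genotypes (r = -0.01). In pool 1 pum had 2818, 2967 and 4887 in orb2-delta-zz and 2641, 2602 and 4024 in wild type, which overlapped (0.19 ± 0.24). The brat mRNA overlapped in both pools, with 28684, 24577 and 28913 in orb2-delta-zz and 28218, 19901 and 28555 in wild type in pool 3 (0.12 ± 0.27). In pool 1 brat had 6397, 5391 and 11086 in orb2-delta-zz and 5017, 6114 and 8716 in wild type (0.17 ± 0.27). No difference between brat and the other repressors was tested.

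Among the mRNAs of the eIF4E-binding particle, cup had 8156, 8654 and 12334 normalized counts in pool 3 of orb2-delta-zz, against 3548, 5184 and 4443 in wild type. All 3 orb2-delta-zz libraries were above wild type, and the log2 difference was 1.14 ± 0.33 (2.20-fold, limma adjusted p = 0.0364). Pool 1 gave 5155, 4110 and 9469 against 2542, 4591 and 5310, which overlapped (0.56 ± 0.33, limma adjusted p = 0.225). In pool 3 tral had 52151, 50852 and 67000 in orb2-delta-zz, against 33373, 36368 and 37804 in wild type, without overlap. Its log2 difference of 0.65 ± 0.26 was not called (limma adjusted p = 0.108). Pool 1 gave 24869, 21081 and 41787 against 9787, 15246 and 17705 for tral, also apart, with a log2 difference of 1.02 ± 0.26 (2.02-fold, limma adjusted p = 0.0169).

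The helicase mRNA me31B had 32555, 31091 and 40829 normalized counts in pool 3 of orb2-delta-zz, against 20219, 18593 and 22225 in wild type. These did not overlap, with a log2 difference of 0.77 ± 0.26 that missed the threshold (limma adjusted p = 0.0655). In pool 1 it had 41358, 39506 and 56431 in orb2-delta-zz, against 17391, 39887 and 22370 in wild type. Wild-type replicate 2, a gradient high in older embryo markers, reached into the orb2-delta-zz range, and the log2 difference was 0.86 ± 0.26 (1.81-fold, limma adjusted p = 0.0338). That call was lost on the TPM scale (limma adjusted p = 0.0648), with upper-quartile scaling (0.0708) and with only the libraries compared (0.0719).

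**Figure D4:**
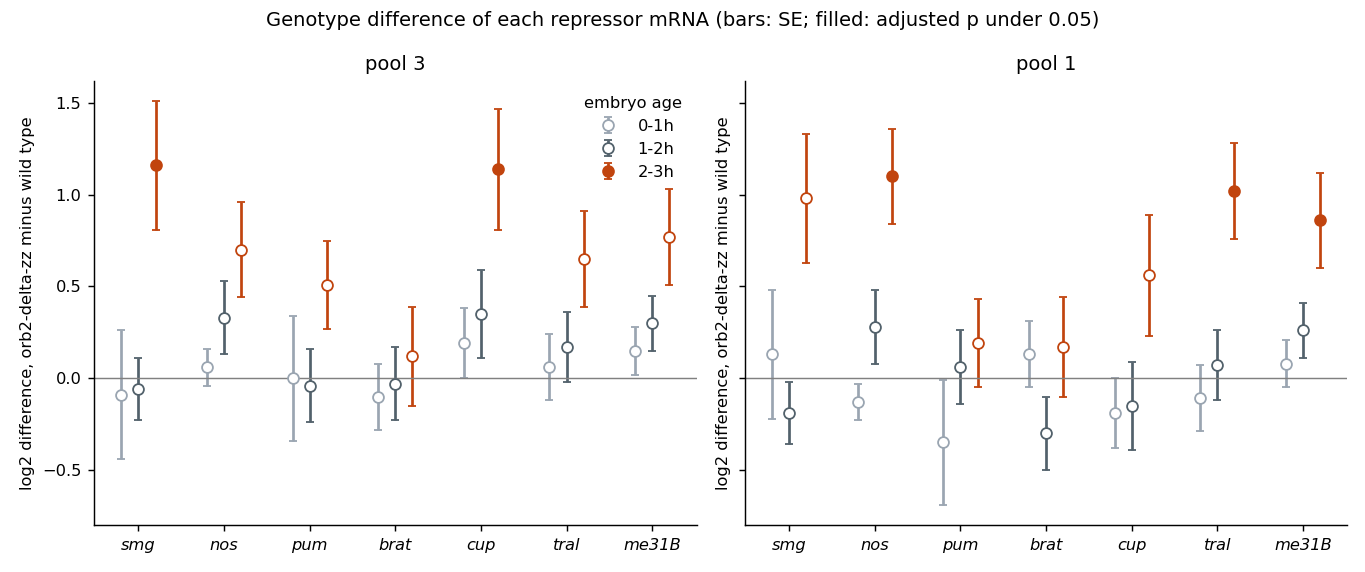
Log2 difference between genotypes (orb2-delta-zz minus wild type, normalized counts plus 1) of each of the 7 mRNAs at 3 ages in pool 3 and pool 1, with bars of 1 SE and filled points for limma adjusted p under 0.05. At 0-1h and 1-2h the points lie between -0.35 and 0.35, and at 2-3h all lie above 0, with 2 called in pool 3 and 3 in pool 1.

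Most of these calls were lost when 1 gradient was left out. In pool 3, both calls were lost without any one of the orb2-delta-zz gradients, without wild-type replicate 1 or without wild-type replicate 3, with smg between 0.89 and 1.33 and cup between 0.95 and 1.27 over all 6 omissions. In pool 1, nos was lost only without wild-type replicate 1 (0.91, limma adjusted p = 0.0663), and tral without wild-type replicate 1 (0.77), likewise without replicate 3 of orb2-delta-zz (0.73). The me31B call was lost in each omission except that of wild-type replicate 2, with values from 0.60 to 1.20. Without the gradients high in older embryo markers, smg (1.42, limma adjusted p = 0.0573) and cup (1.34, 0.0523) missed the threshold in pool 3 while me31B passed it (0.78, 0.043). In pool 1 nos, tral and me31B were then called as before (1.30, 1.29 and 1.29, limma adjusted p = 0.0356, 0.0292 and 0.0118).

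Some maternal stage markers were called higher in orb2-delta-zz at each age, and more of them at 2-3h, while zygotic stage markers were lower at each age. At 2-3h the sum of 12 maternal markers, other mRNAs that the mother supplies, was 3856 to 4729 TPM in orb2-delta-zz and 2586 to 2755 TPM in wild type in pool 3. In pool 1 it was 999.2 to 1627 against 508.7 to 707.6 TPM. Of the 12, limma called 7 higher in pool 3 and 6 in pool 1, with 0 lower in either, and their median log2 difference was 1.02 and 0.87. Of the 22 zygotic genes, pool 3 had 12 lower, pool 1 had 20 lower, and 0 were higher. The zygotic genes were already lower at 0-1h (17 of 21 in pool 3 and 16 of 21 in pool 1) and at 1-2h (13 and 6 of 22), when none of the 7 repressors was called. From the youngest to the oldest embryos, the zygotic median log2 difference was -1.70, -0.87 and -0.83 in pool 3. In pool 1 it was -1.43, -0.65 and -1.04, so in both pools it was largest in size at 0-1h. The part of these stage markers' shift in the differences of the 7 was not tested.

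The level of the 7 mRNAs across the 3 ages was compared on TPM, since each time had its own scaling of the normalized counts. From 0-1h to 1-2h nos was the one called in pool 3. There nos fell to 381.8 ± 36.6 TPM at 1-2h in orb2-delta-zz, where it had 678.1 ± 57.5 TPM at 0-1h, and to 313.6 ± 65.9 TPM in wild type, where it had 658.2 ± 19.9 TPM. The libraries of the 2 ages did not overlap in either genotype. Its log2 difference was -0.83 ± 0.26 in orb2-delta-zz (limma adjusted p = 0.0167) and -1.09 ± 0.26 in wild type (limma adjusted p = 0.00118). These were the lone calls in pool 3, 1 of 7 in each genotype, against 16.5% of genes lower and 8.02% higher in orb2-delta-zz and 21.7% and 12.2% in wild type. In pool 1, none was called in orb2-delta-zz, where 35.8% of genes were lower and 7.83% higher. In wild-type pool 1, nos (-0.68 ± 0.26) and pum (-0.86 ± 0.36) were called lower, where 46.4% of genes were lower, 8.32% were higher and the median gene was at -0.41. Both calls were lost without the gradients high in older embryo markers (limma adjusted p = 0.118 and 0.148). Upper-quartile scaling turned the all-gene split there to 2402 higher and 1830 lower, against 607 and 3381. On that scale nos (-0.07) and pum (-0.29) were not called, and smg (1.26), brat (1.00), cup (0.86) and tral (0.60) were called higher.

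From 1-2h to 2-3h most of the 7 were called lower in wild type. In wild-type pool 3, limma called 6 of the 7 lower, where 40.9% of all genes were lower, 18.9% higher and the median gene was at -0.24. In that pool nos fell to 29.84 ± 3.72 TPM at 2-3h (log2 difference -3.34 ± 0.26, limma adjusted p = 7.9e-12). Likewise cup fell to 81.82 ± 23.5 TPM, where it had 473.2 ± 64.5 TPM at 1-2h (-2.55 ± 0.37, limma adjusted p = 7.3e-07), and smg to 413.9 ± 153.3 TPM, where it had 1624 ± 73.2 TPM (-2.04 ± 0.31, limma adjusted p = 1.9e-06). Smaller falls were those of tral (-1.19 ± 0.31), pum (-0.95 ± 0.36) and me31B (-0.94 ± 0.22), and brat at -0.60 ± 0.29 was not called (limma adjusted p = 0.0776). The call of pum was lost without the gradients high in older embryo markers (-1.11, limma adjusted p = 0.0652).

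In orb2-delta-zz pool 3, 2 of the 7 were called lower over the same interval, where 32.7% of all genes were lower and 14.6% higher. They were nos, which fell to 52.33 ± 13.2 TPM (-2.87 ± 0.26, limma adjusted p = 1.7e-10), and cup, which fell to 188.6 ± 42.7 TPM, where it had 586.2 ± 25.6 TPM at 1-2h (-1.65 ± 0.37, limma adjusted p = 4.0e-04). The smg mRNA had 946.2 ± 223.4 TPM at 2-3h and 1522 ± 49.1 TPM at 1-2h, and its -0.71 ± 0.31 did not pass the test (limma adjusted p = 0.0625). The differences of me31B (-0.37 ± 0.22), tral (-0.60 ± 0.31), pum (-0.30 ± 0.36) and brat (-0.35 ± 0.29) did not pass it either. Fitted on the compared libraries alone, all 7 were called. The genotype difference in the change between adjacent ages was not tested in either pool.

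In pool 1 the median gene was lower at 2-3h than at 1-2h, at -0.64 in orb2-delta-zz and -0.73 in wild type on the log2 scale, so the differences there are also given relative to it. In that pool nos fell to 40.8 ± 17.8 TPM in orb2-delta-zz and 18.65 ± 5.82 TPM in wild type (-3.56 ± 0.26 and -4.42 ± 0.26), which is -2.92 and -3.69 relative to the median gene. Also called lower in both genotypes were me31B (-2.59 and -3.26), tral (-2.19 and -3.20), cup (-2.16 and -2.92) and brat (-0.89 and -1.42), 5 of 7 in each, where 54.9% of all genes were lower in orb2-delta-zz and 58.1% in wild type. Relative to the median gene brat was at -0.25 and -0.69, and with upper-quartile scaling it turned to 0.27 in orb2-delta-zz and was not called in wild type (-0.22, limma adjusted p = 0.299). That scaling turned the all-gene split to 3722 higher and 2105 lower in orb2-delta-zz, against 1016 and 4005, and to 3578 and 2325 in wild type, against 1252 and 4235. The orb2-delta-zz call of brat was also lost with only the libraries compared (limma adjusted p = 0.0544). It was lost without orb2-delta-zz replicate 1 at 1-2h (0.115), and without replicate 1 (0.0536) or 2 (0.0639) at 2-3h.

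Of the 7, smg was called higher in pool 1 of orb2-delta-zz over this interval, where 13.9% of all genes were higher. It had 49.57, 45.56 and 101.5 TPM at 2-3h, against 26.25, 28.62 and 22.24 TPM at 1-2h. The ages did not overlap, and the log2 difference was 1.23 ± 0.31 (limma adjusted p = 9.4e-04). In wild type the same pool had 17.88, 34.58 and 48.64 TPM of smg at 2-3h and 29.05, 36.62 and 27.54 TPM at 1-2h, which overlapped (0.02 ± 0.31, limma adjusted p = 0.968), against 17.2% of genes called higher. Relative to the median gene these were 1.87 in orb2-delta-zz and 0.75 in wild type, and with upper-quartile scaling smg was called higher in wild type as well (1.25, limma adjusted p = 5.1e-04). The pum mRNA in pool 1 had -0.08 ± 0.36 in orb2-delta-zz and -0.26 ± 0.36 in wild type, not called, and 0.56 and 0.47 relative to the median gene. With upper-quartile scaling pum was called higher in both (1.05 and 0.90).

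Whether the change from 0-1h to 2-3h itself depended on the genotype was tested as an interaction of genotype and time. All 7 values were above 0 in both pools, with a median of 0.72 in pool 3 and 0.90 in pool 1, where the median gene was at 0.13 and 0.15 and 61.4% and 60.6% of all genes were above 0. In pool 3, 1 of the 7 was called, smg, whose decline was smaller in orb2-delta-zz by 1.34 ± 0.44 on the log2 scale (limma adjusted p = 0.0483), where 7.50% of genes were called higher and 3.14% lower. In pool 1, 1 of the 7 was called, nos, at 1.31 ± 0.36 (limma adjusted p = 0.0153), where 12.3% were higher and 2.28% lower. With upper-quartile scaling the all-gene split turned to 722 higher and 832 lower in pool 3, against 547 and 229, and to 1145 and 1430 in pool 1, against 900 and 166. The pool 1 value of smg was 0.95 ± 0.44 and not called (limma adjusted p = 0.149). The values of cup (1.04 ± 0.52) in pool 3 and of tral (1.23 ± 0.44) and me31B (0.90 ± 0.32) in pool 1 missed the threshold (limma adjusted p = 0.202, 0.0559 and 0.0527). The smg call was lost without the gradients high in older embryo markers (1.33, limma adjusted p = 0.101), and with them left out tral (1.85) and me31B (1.52) were called in pool 1 beside nos.

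Across the 12 group means of log2(TPM + 1), the 7 mRNAs formed patterns that the list did not use. Pearson's r was 0.99 between pum and brat, 0.97 between pum and smg and 0.97 between cup and tral, and 0.85 between nos and me31B, while nos and smg had 0.05. These points share libraries, scaling and the large step between pools, so r is a description and carries no p. Among all 7294 genes listed at every time with a mean of at least 1 TPM, the 3 most like smg were CG2310 (0.998), the cyclin gene CycA (0.997) and Naa60 (0.997). For nos they were mdu, Akr1B and bip1 (0.996 to 0.997), for pum Herc4, Brd7-9 and CG42637 (0.999 each), and for brat ADD1, TSG101 and Rcd-1 (0.998 to 0.999), of which Rcd-1 is a subunit of CCR4-NOT. For cup they were Pcif1, CG8516 and Chpf (0.996 each), for tral Rpt6, Nt5b and CtsL1 (0.994 each), and for me31B Pis, CkIIalpha and elm (0.985 to 0.992).

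Genes that work with the repressors were described from lists chosen for their roles. Their 2-3h counts are set against all genes, where 9.71% were called higher in pool 3 (4.97% lower) and 14.4% in pool 1 (9.48% lower). Of 9 genes of the CCR4-NOT deadenylase, which Smaug, Nanos, Pumilio and Brat recruit, limma called 0 in pool 3 and 1 higher in pool 1 of orb2-delta-zz at 2-3h, with medians of 0.08 and 0.04. The pool 1 count is near the share of all genes. The called gene was twin, the CCR4 subunit (0.76 ± 0.24, limma adjusted p = 0.0374). Of 21 partners in repressor complexes and mRNA decay, 3 were higher in pool 3 and 5 in pool 1 at 2-3h and 0 lower, with medians of 0.24 and 0.19. Of these, orb, the paralog of orb2, had 2.04 ± 0.41 in pool 3 and 1.74 ± 0.41 in pool 1, and bru1, which represses oskar mRNA together with Cup, had 2.15 ± 0.33 and 1.45 ± 0.33. The gene of the cap-binding repressor eIF4EHP, which Brat recruits, was higher in pool 1 at all 3 ages (0.69, 0.82 and 0.92). In pool 3, 0 of the 21 partners were called at 0-1h and 1-2h. The interaction of genotype and pool called 0 of the 21 at any age.

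Of 10 genes of the CTLH ligase and the PNG kinase, 3 were higher in pool 3 and 4 in pool 1 at 2-3h, and 0 lower, with medians of 0.15 and 0.36. The PNG activator gene gnu had 1.67 ± 0.45 in pool 3 and 1.82 ± 0.45 in pool 1, and the kinase gene png had 0.95 ± 0.26 and 1.09 ± 0.26. For muskelin, a subunit gene of the ligase, pool 1 was higher in orb2-delta-zz at 1-2h (1.39 ± 0.16).

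Of 7 textbook targets of these repressors, 5 were higher in pool 3, and 4 were higher and 1 lower in pool 1 at 2-3h, with medians of 1.10 and 1.27. In pool 3 osk, the posterior determinant, had 2.04 ± 0.40 and bcd, the anterior determinant, had 1.40 ± 0.32. In pool 1 grk had 1.52 ± 0.26 and osk 1.40 ± 0.40, while hb, the target of Nanos, Pumilio and Brat that the embryo also transcribes itself, was lower at -0.75 ± 0.18 (limma adjusted p = 0.0134). The target list shares bcd, osk, grk, Hsp83 and CycB with the maternal stage markers, and those markers share gnu and png with the ligase and kinase list, so these lists are not separate evidence. At 0-1h and 1-2h at most 1 gene of each of these 4 lists was called in each direction in each pool.

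**Figure D5:**
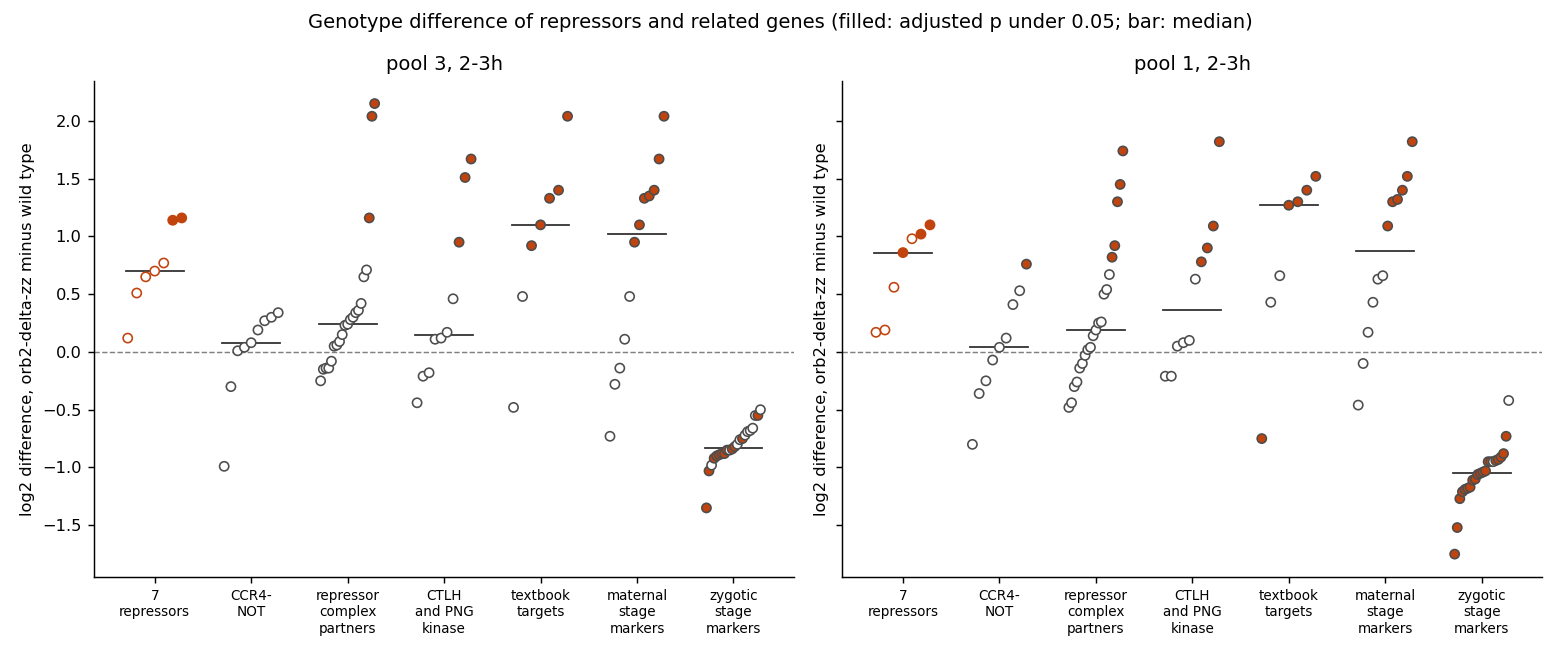
Log2 difference at 2-3h (orb2-delta-zz minus wild type) of the 7 repressors, of 4 lists of genes that work with them and of maternal and zygotic stage markers, in pool 3 and pool 1, 1 point a gene, filled where the limma adjusted p is under 0.05, with the median of each list as a bar. The medians of the 7 repressors (0.70 and 0.86) and of the maternal markers (1.02 and 0.87) lie above 0, and that of the zygotic markers lies below it.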

How the data were processed

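RNA of gradient pools 3 and 1 was depleted of ribosomal RNA and sequenced with a stranded kit, per the labels' protocols, in 36 libraries. Per the submitters' processing notes, DESeq2 1.42.1, Salmon 1.9.1 and Trim Galore 0.6.5 were used. A genome build was not given in the sources used here. Per the labels and values, the deposited signal is a normalized count per gene (estimated counts divided by library factors, 1 table per time), beside deposited TPM, which is scaled by length and library total. Within each gene the deposited counts and TPM differ only by a library factor (SD of their log2 ratio 0.000953 to 0.00134). The tables list only genes above 0 in all 12 libraries of a time, and depth as raw counts is unknown, so no counting interval is given.

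Differences within a time were tested with limma 3.58.1 (R 4.3.3, trend) on log2(normalized count + 1), for genes with a mean of at least 10, with the 4 groups of a time sharing 1 spread. Differences between times were tested on log2(TPM + 1) over all 36 libraries, for the 7294 genes listed at every time with a mean of at least 1 TPM. Fold changes on these scales understate the change of low genes. P-values were two-sided and adjusted by Benjamini-Hochberg over all genes, with a call under 0.05. The script was tested on simulated data. Libraries of pools 3 and 1 from 1 gradient deviated together (r 0.12 to 0.83 in all 18 pairs), so the gradient was used as a block in an alternative fit. Same-numbered libraries of the 2 genotypes deviated together in all 3 pairs in pool 1 at 0-1h (r 0.15 to 0.24) and at 2-3h (r 0.22 to 0.63). In pool 3 at 2-3h replicates 1 and 2 did so (r 0.76 and 0.74) and replicate 3 did not (r -0.01). In no other pool and age did all 3 pairs deviate together. The replicate number was therefore a block in another fit. Symbols came from the BDGP6.54 annotation and left 71 of 10226 gene IDs without one.

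The genes named are all 7 repressors, the 3 genes most like each (Pearson's r over the 12 group means), up to 2 called genes in each direction from each list in a genotype comparison, and orb2. A result that this rule would name is not reported here. Genes named beyond that rule (Rcd-1 as a CCR4-NOT subunit, eIF4EHP across ages, png in pool 3 and overlapping genes) were chosen after their values were seen. The 7 members and the lists were chosen with earlier results of these data known. Alternatives were another pseudocount, no filter on low values, TPM, upper-quartile scaling, only the compared libraries, a replicate block, each gradient left out and, added after seeing the data, the 5 gradients high in older embryo markers left out.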

Additional observations from a re-analysis of the deposited data

Results flagged for a closer look

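In pool 3 the change of smg from 0-1h to 2-3h depended on the genotype, by a test of the difference itself (1.34 ± 0.44 on the log2 scale of TPM, limma adjusted p = 0.0483). That call was lost with a pseudocount of 0.1 (limma adjusted p = 0.0596), with upper-quartile scaling (0.0523), with only the libraries compared (0.0533), without the gradients high in older embryo markers (0.101) and in 9 omissions of 1 gradient (up to 0.145). In pool 1 the change of nos differed in the same way (1.31 ± 0.36, limma adjusted p = 0.0153), a call lost with only the libraries compared (limma adjusted p = 0.15) and in 4 omissions. These were replicate 2 at 0-1h (0.0641) and replicate 3 at 2-3h (0.0726) of orb2-delta-zz, and replicate 1 of wild type at 0-1h (0.06) and at 2-3h (0.0737). In pool 3 smg had 800.8, 1470 and 1473 TPM at 0-1h in orb2-delta-zz, against 900.6, 1613 and 1487 TPM in wild type, so replicate 1 of both genotypes was the lowest at that age. The maternal stage markers also stood higher in orb2-delta-zz at 2-3h, and their part in both results was not tested.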

How the results depend on the processing

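Of 2268 values of the 7 mRNAs under alternatives, 2115 kept their side of the threshold. Among these, 102 changed sign with no call in either setting, and the others kept their direction. A further 78 lost a call, 63 gained one and 12 turned in direction with a call in 1 setting. With TPM in place of normalized counts, pool 3 minus pool 1 turned for nos to 0.31 in orb2-delta-zz and 0.02 in wild type for 0-1h embryos and to 0.40 and 0.69 at 2-3h. It turned for me31B to 0.02 (orb2-delta-zz) at 0-1h and to 2.16 in both genotypes at 2-3h, and for tral to 1.79 (wild type) at 1-2h, where the median gene shifts by 1.18 to 2.20. The all-gene split of calls on that scale at 0-1h was 5426 higher and 492 lower in orb2-delta-zz and 5052 and 549 in wild type. With upper-quartile scaling, pool 1 at 2-3h against 1-2h turned for pum to 1.05 (orb2-delta-zz) and 0.90 (wild type) and for brat to 0.27 (orb2-delta-zz), and tral at 1-2h against 0-1h turned to 0.60 (wild type).

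Counts of the 7 called at 2-3h between genotypes in pool 3 were 2, and became 4 with only the compared libraries, 6 with the replicate block across genotypes and 1 without the gradients high in older embryo markers. With that block, 4 in place of 3 were called in pool 1. Over the series the numbers were related across genotypes unevenly (r -0.74 to 0.76), with every pair above 0.1 in pool 1 at 0-1h and 2-3h and not in the other pools and ages. In pool 3 at 2-3h the pairs had r of 0.76, 0.74 and -0.01. The block by gradient changed 1 pool call, that of cup in orb2-delta-zz at 2-3h. Omitting 1 gradient gave 0 to 3 in pool 3 and 0 to 3 in pool 1. For 1-2h against 0-1h, orb2-delta-zz pool 3 had 1 and pool 1 had 0, with 3 in pool 3 with only the compared libraries and 3 in pool 1 with upper-quartile scaling. Wild-type pool 3 had 1 and pool 1 had 2, with 3 in pool 3 with only the compared libraries, and in pool 1 4 with upper-quartile scaling, all higher and none of them the 2, 1 with only the compared libraries and 0 without the older-marker gradients. Omissions gave 0 to 1 in orb2-delta-zz pool 3 and 0 to 2 in wild-type pool 1. For 2-3h against 1-2h, orb2-delta-zz pool 3 had 2, 7 with only the compared libraries, and 2 to 3 over omissions. The genotype difference in the change over time had 1 called in each pool. In pool 3 it became 0 with a pseudocount of 0.1, 0 with upper-quartile scaling, 5 with only the compared libraries, smg not among them, 0 without the older-marker gradients and 0 to 2 over omissions. In pool 1 it became 3, 2, 0 and 3 under the same settings and 0 to 4 over omissions. The cause was not tested.

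Over all genes, the genotype calls at 2-3h were 1403 in pool 3 (377 to 3191 over omissions, 3301 with the replicate block) and 2280 in pool 1 (878 to 3172, 3950). At 0-1h they were 571 in pool 3 (256 to 898, 330 on TPM) and 756 in pool 1 (346 to 1146, 215 on TPM), and at 1-2h 711 (422 to 805) and 948 (422 to 829). The interaction of genotype and pool had 39 at 0-1h (82 with upper-quartile scaling), 40 at 1-2h (96) and 13 at 2-3h (510 with the block, 0 without the older-marker gradients). The genotype difference over time had 776 in pool 3 and 1066 in pool 1, and 2178 and 165 with only the compared libraries. Depth is unknown, so its limit on low values cannot be stated.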
